A study of Mus musculus with 4 samples.

Results

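Genes of splenic macrophages and of iron recycling were examined in whole spleen RNA of 2 wild type mice and 2 mice with B cell leukaemia. The set was a named list of 33 genes: markers of red pulp and marginal zone macrophages, genes of haem and iron handling, receptors and a ligand for the uptake of dying cells, and genes of phagocytes in general. A member was measured where a probe set of the array carried its symbol alone, which held for 32 of the 33, among 19297 genes measured in all. Slc11a1, a phagosomal metal transporter, had no probe set with its symbol, alone or beside others, and was not analysed here. The list was not chosen by a measured value of these arrays, but it was drawn up with earlier results of the same data known.

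All 4 mice were of the 129Sv background and homozygous for floxed RBP-J, the gene of the transcription factor that Notch receptors act through, so the controls carry the floxed alleles too. Wild type mice had the genotype Ren1d+/+; their ages were 80 and 81 days, and their spleens weighed 0.12 g and 0.16 g. Leukaemic mice were Ren1dcre/cre, with cre recombinase at both alleles of a renin gene; replicate 1 was 107 days old with a spleen of 0.7 g, and replicate 2 was 93 days old with a spleen of 0.47 g. Leukaemic replicate 2 was male and the other 3 mice were female. The Ren1d genotype with its cre, any deletion of RBP-J, age and spleen weight therefore cannot be told apart from the disease. The only male was leukaemic, so sex is not balanced between the groups. The labels do not say in which spleen cells RBP-J was deleted.

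Red pulp macrophages filter the blood and engulf aged red cells. They split haem with haem oxygenase, return the iron to plasma through ferroportin, and depend on the transcription factor SpiC. In mouse spleen a second population lines the marginal zone, as Marco-positive marginal zone macrophages and Siglec1-positive metallophilic macrophages, where they take up blood-borne particles and dying cells.

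Values are log2 expression from the authors' deposited table, and differences are leukaemic minus wild type on the log2 scale. Each was tested with limma, a linear model with variances shared across genes, over all 19297 genes, and a gene was called at a Benjamini-Hochberg adjusted p under 0.05. Of the measured members 0 of 32 were called in either direction, against 2.46% of all genes. That is 0 lower and 0 higher, where 1.03% of all genes were called lower and 1.43% higher. At an unadjusted limma p under 0.05, 20 members were lower and 0 higher in leukaemic spleen, while 10.6% of all genes were lower and 10% higher at that level. The difference was below 0 in 29 of 32 members (56.1% of all genes), and in 24 members both leukaemic values lay under both wild type values (26.2% of all genes). In 0 members did both leukaemic values lie above both wild type values (23% of all genes). The median difference was -0.47 over the members and -0.03 over all genes. The smallest adjusted p of a member was 0.0521, and 0 members differed by 2-fold or more. In whole spleen RNA, fewer macrophages, less RNA per macrophage and a larger share of RNA from other cells cannot be told apart. Amounts per whole spleen were not measured.

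**Figure D1:**
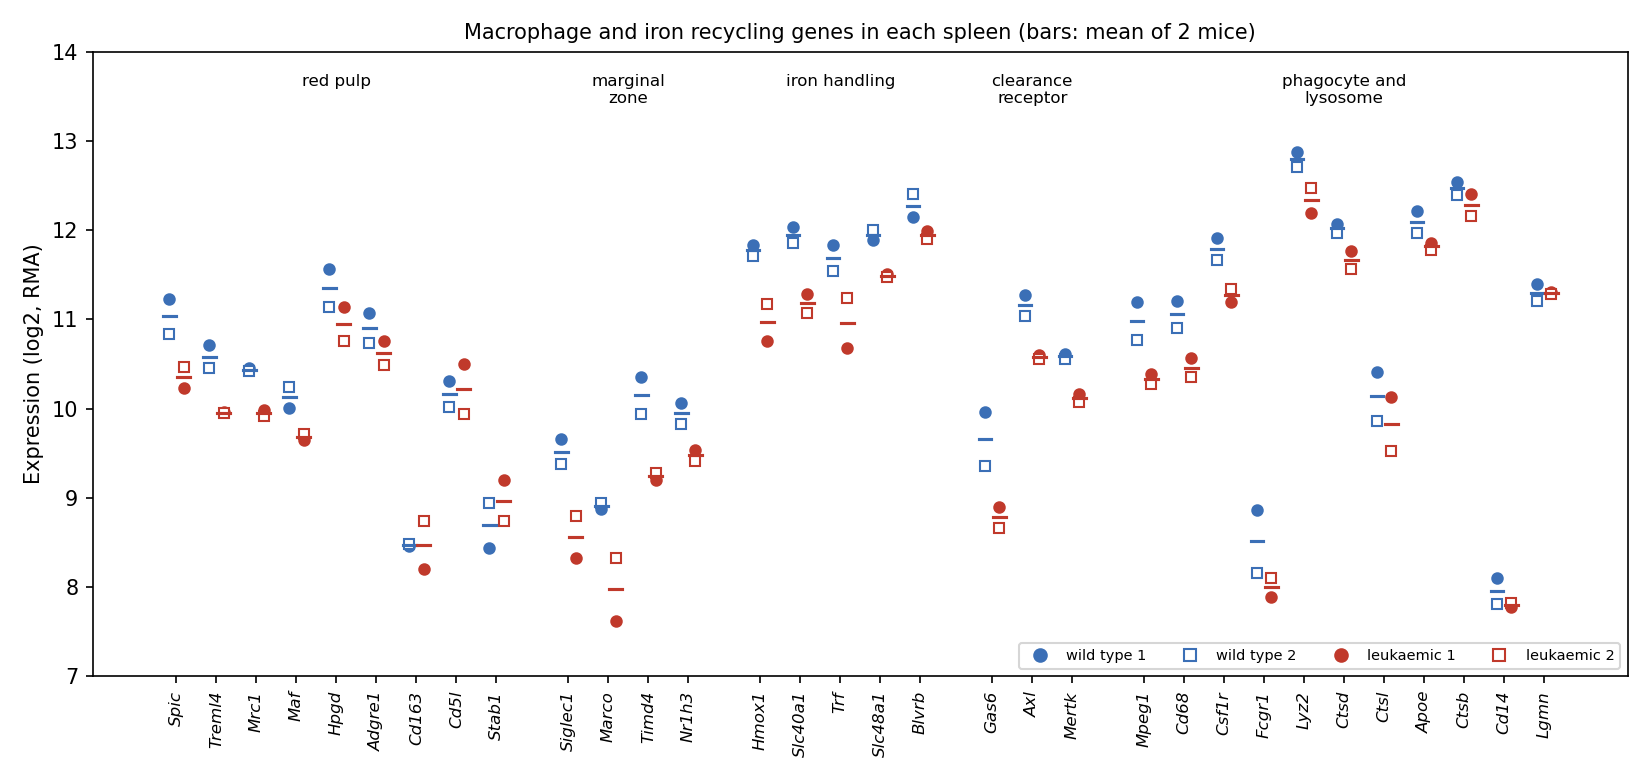
Expression (log2, RMA) of the 32 measured members in each mouse, by group of members; circles are replicate 1, squares replicate 2, blue wild type, red leukaemic, and bars the mean of 2 mice. In 24 members both red points lie under both blue points (26.2% of all genes), while Adgre1, Cd163, Cd5l, Stab1, Lgmn, Ctsb, Ctsl and Cd14 overlap.

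Promoter windows of RefSeq (build GRCm38.p6) were available for 22 of the 32 measured members, as the 250 bases before a transcription start. Both strands were searched for GAGGAAGT, a site type of PU.1 and SpiC, and for TGACNNNGC, the core of the antioxidant response element through which Hmox1 is induced. The first was in 0 of 27 windows of the members and in 2.44% of 32851 windows of all genes, and the second in 1 of 27 and in 10.2%. The 10 members without a window were Adgre1, Cd14, Csf1r, Ctsb, Hmox1, Maf, Siglec1, Slc40a1, Slc48a1 and Trf. Shown are the windows of Spic, as the regulator of red pulp macrophages (chr10:88683024-88683273), of Marco and Stab1, as the members in the table with the lowest and the highest difference (chr1:120505025-120505274 and chr14:31168642-31168891), and of Ctsd, as the window with a match (chr7:142387828-142388077), all on the minus strand. Capitals mark the second motif, which occurs in the Ctsd window 2 times, once on each strand.
Spic: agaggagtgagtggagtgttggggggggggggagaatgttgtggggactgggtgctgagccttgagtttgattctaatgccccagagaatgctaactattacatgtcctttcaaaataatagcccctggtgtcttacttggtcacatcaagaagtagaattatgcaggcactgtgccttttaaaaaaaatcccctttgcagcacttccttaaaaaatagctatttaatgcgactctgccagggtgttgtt
Marco: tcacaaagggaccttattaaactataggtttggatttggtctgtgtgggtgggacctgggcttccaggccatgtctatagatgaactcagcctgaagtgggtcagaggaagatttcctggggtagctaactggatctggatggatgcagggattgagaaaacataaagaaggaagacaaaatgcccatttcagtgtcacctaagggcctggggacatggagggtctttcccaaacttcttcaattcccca
Stab1: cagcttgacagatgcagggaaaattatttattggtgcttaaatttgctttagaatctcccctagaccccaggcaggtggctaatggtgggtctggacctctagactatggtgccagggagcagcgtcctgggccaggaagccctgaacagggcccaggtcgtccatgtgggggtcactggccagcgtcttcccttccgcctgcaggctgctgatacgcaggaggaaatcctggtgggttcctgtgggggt
Ctsd: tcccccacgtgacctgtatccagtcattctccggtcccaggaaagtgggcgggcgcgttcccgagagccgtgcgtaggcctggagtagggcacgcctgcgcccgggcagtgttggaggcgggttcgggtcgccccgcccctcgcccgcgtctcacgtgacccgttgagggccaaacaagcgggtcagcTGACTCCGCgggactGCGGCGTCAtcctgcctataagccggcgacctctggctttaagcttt
A match is a description of these letters and not evidence of a bound site, and a window without a match says nothing about the factor.

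The regulator of red pulp macrophages was lower in both leukaemic spleens. Spic, the ETS family transcription factor that these cells need, had values of 11.23 and 10.84 in the wild type mice, against 10.24 and 10.46 in leukaemic spleen. The groups did not overlap, and the difference of -0.69 (SE 0.18) corresponds to 1.61-fold lower expression, with a limma adjusted p of 0.0941. Treml4, a receptor of red pulp macrophages and some dendritic cells, was at 10.71 and 10.45 in wild type and at 9.96 and 9.95 in leukaemic mice. Both leukaemic values were nearly equal and under both wild type values (difference -0.63, SE 0.15, limma adjusted p = 0.0775). Mrc1, the mannose receptor CD206, read 10.45 and 10.42 in wild type against 9.98 and 9.92. Its replicates differed by less than 0.07 in each group, and the difference was -0.49 (SE 0.13, limma adjusted p = 0.107).

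Adgre1, the gene of F4/80, the antigen by which red pulp macrophages are usually recognised, had overlapping groups. It was at 11.08 and 10.74 in wild type and at 10.76 and 10.49 in leukaemic spleen. Leukaemic replicate 1 lay above wild type replicate 2, so the groups overlapped. The difference was -0.28 (SE 0.18, limma adjusted p = 0.465), with a 95% interval from -0.70 to 0.14. It was -0.11 without wild type replicate 1 and -0.45 without wild type replicate 2. Maf, a transcription factor of tissue macrophages, had a difference of -0.44 (SE 0.15). Hpgd, which inactivates prostaglandins and marks red pulp macrophages, had one of -0.40 (SE 0.20). Hpgd values of wild type replicate 2 and leukaemic replicate 1 were almost the same, both at 11.13, and without wild type replicate 1 its difference was -0.19.

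For 3 members the difference was above 0, and all 3 belong to the red pulp group. Cd163, the scavenger receptor for haptoglobin-bound haemoglobin, was at 8.46 and 8.49 in wild type and at 8.20 and 8.74 in leukaemic mice. The leukaemic replicates lay on either side of the wild type values, and their means nearly coincided (8.47 in each group, 95% interval of the difference from -0.47 to 0.47). Cd5l, a secreted survival factor of macrophages, was at 10.30 and 10.02 in wild type and at 10.50 and 9.94 in leukaemic mice. Its highest and lowest values were both leukaemic, so that the difference of 0.06 (SE 0.22) was smaller than the gap between those mice. That difference was -0.01 after quantile normalization. Stab1, a scavenger receptor of macrophages and sinusoidal endothelium, read 8.44 and 8.94 in the wild type mice, against 9.20 and 8.74 in leukaemic spleen. Leukaemic replicate 1 was the highest and wild type replicate 1 the lowest (difference 0.28, SE 0.23, limma adjusted p = 0.599). The Stab1 difference was 0.03 without wild type replicate 1 and 0.05 without leukaemic replicate 1, so its size rests on these single mice.

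Wild type and leukaemic values overlapped in 4 of the 9 red pulp members, against 9795 of 19297 genes in all. The 9 members thus had differences from -0.69 to 0.28, with a median of -0.40. Without wild type replicate 1 that median was -0.19.

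Of the 4 marginal zone markers, 3 had the lowest differences in the list. Siglec1, the sialic acid-binding lectin CD169 of metallophilic macrophages, was at 9.66 and 9.38 in wild type and at 8.33 and 8.80 in leukaemic mice. All leukaemic values were lower, lowest in replicate 1 (difference -0.95, SE 0.20, 1.93-fold lower, limma adjusted p = 0.0605). Marco, a scavenger receptor for bacteria and particles, was at 8.87 and 8.95 in wild type and at 7.62 and 8.33 in leukaemic mice. The wild type replicates were close to each other and the leukaemic ones 0.71 apart (difference -0.93, SE 0.23, limma adjusted p = 0.0846).

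Timd4, a phosphatidylserine receptor for dying cells, read 10.36 and 9.94 in the wild type mice, against 9.20 and 9.28 in leukaemic spleen. Here the leukaemic mice were alike and the wild type mice further apart. Its difference of -0.91 (SE 0.18) had the smallest adjusted p of all members, 0.0521 in limma. With all 4 mice kept, Timd4 was called in some alternative analyses and not in others. Nr1h3, the oxysterol receptor LXR alpha that marginal zone macrophages require, was at 10.06 and 9.83 in wild type and at 9.54 and 9.42 in leukaemic mice, without overlap (difference -0.47, SE 0.15, limma adjusted p = 0.146). In all 4 marginal zone members both leukaemic values were under both wild type values (26.2% of all genes), and the median difference was -0.92. Whether this group differs from the red pulp group was not tested.

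**Figure D2:**
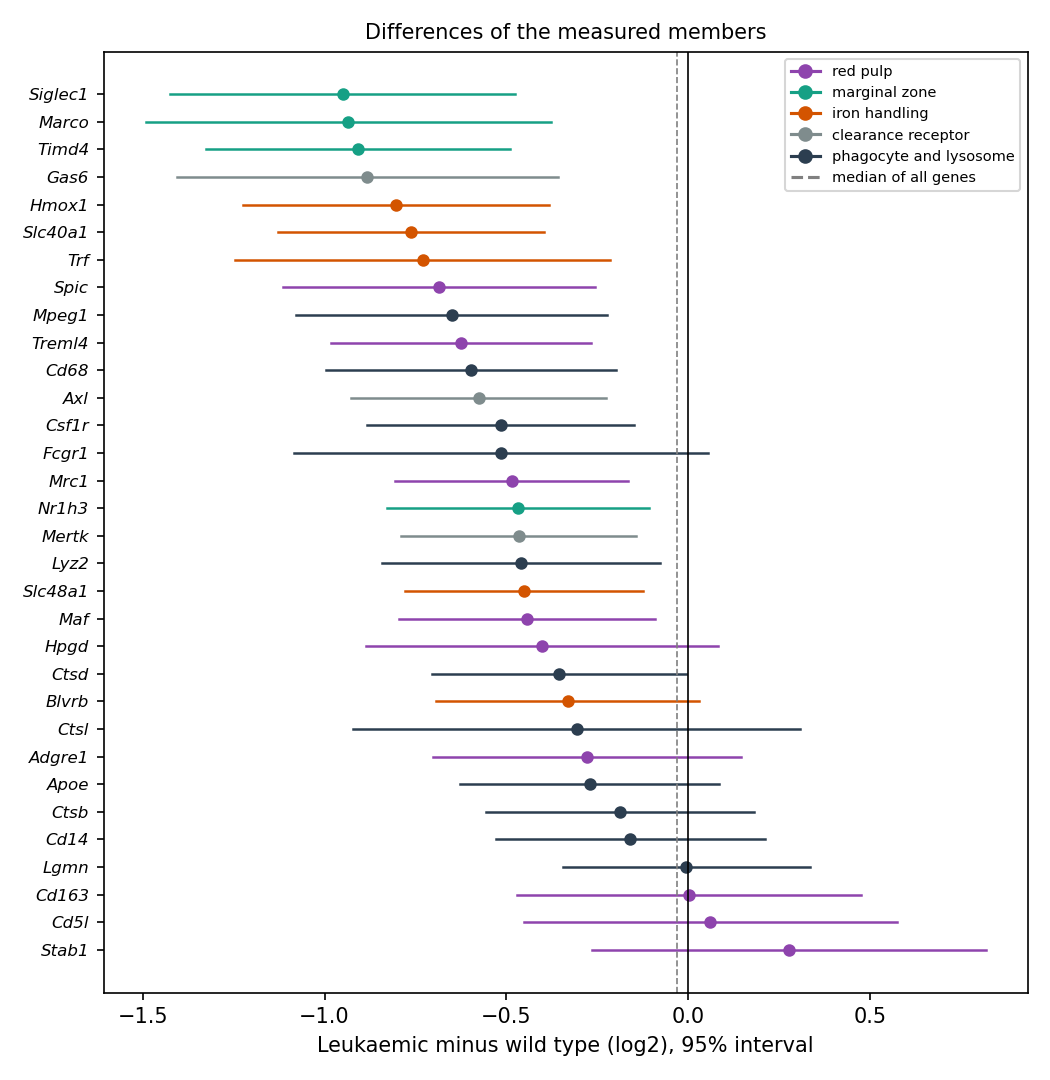
Difference between leukaemic and wild type spleen (log2) for each measured member with its 95% interval from limma, coloured by group of members; the dashed line marks the median of all genes at -0.03. Siglec1, Marco and Timd4 stand lowest at -0.95 to -0.91, and 20 of 32 intervals lie wholly below 0. Of all genes, 10.6% were lower at an unadjusted limma p under 0.05. After adjustment 0 members were called.

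In all 5 measured iron-handling members both leukaemic values were under both wild type values (26.2% of all genes). Of these members 0 were called (2.46% of all genes). Hmox1, the inducible haem oxygenase, was at 11.84 and 11.71 in wild type and at 10.76 and 11.17 in leukaemic spleen. The groups did not overlap, with leukaemic replicate 1 lowest (difference -0.80, SE 0.18, 1.75-fold lower, limma adjusted p = 0.0656). Slc40a1, the iron exporter ferroportin, had values of 12.04 and 11.85 in the wild type mice, against 11.29 and 11.08 in leukaemic mice. Both leukaemic values were under both wild type values, and leukaemic replicate 2 was the lowest (difference -0.76, SE 0.15, 1.70-fold lower, limma adjusted p = 0.0557). Trf, the plasma iron carrier transferrin, was at 11.84 and 11.54 in wild type and at 10.68 and 11.24 in leukaemic mice. The leukaemic mice differed by 0.56, while the groups stayed apart (difference -0.73, SE 0.22, limma adjusted p = 0.125).

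Slc48a1, which carries haem out of the phagolysosome, was at 11.88 and 12.00 in wild type and at 11.51 and 11.47 in leukaemic mice, apart from each other (difference -0.45, SE 0.14). Blvrb, a biliverdin reductase also abundant in red cell precursors, was at 12.15 and 12.40 in wild type and at 11.99 and 11.90 in leukaemic mice, again apart (difference -0.33, SE 0.15, limma adjusted p = 0.284). Both genes were higher in wild type replicate 2 than in replicate 1, unlike Hmox1, Slc40a1 and Trf. So were Maf, Marco, Cd163 and Stab1 of the other groups, and 44.4% of all genes were lower in replicate 2. Erythroid markers were higher in wild type replicate 2 as well, in 7 of 7 measured genes and by a median of 0.49 (0.04 over all genes). Their own leukaemic difference had a median of -0.51, with 7 of 7 apart and lower (26.2% of all genes). Their part in the values of Blvrb and Slc48a1 was not tested. The iron-handling members had a median difference of -0.73, which was -0.47 without leukaemic replicate 1.

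Of the receptor tyrosine kinases that bind dying cells through a bridging ligand, the members Mertk and Axl were lower too. So was the ligand Gas6. Mertk was at 10.61 and 10.55 in wild type and at 10.16 and 10.08 in leukaemic spleen, with replicates less than 0.09 apart (difference -0.47, SE 0.14, limma adjusted p = 0.121). Axl, of the same family, was at 11.27 and 11.04 in wild type and at 10.60 and 10.56 in leukaemic mice (difference -0.58, SE 0.15, limma adjusted p = 0.0884). Gas6, their ligand, was at 9.96 and 9.36 in wild type and at 8.90 and 8.66 in leukaemic mice. The wild type mice differed by 0.60 here, and the difference between groups was -0.88 (SE 0.22, limma adjusted p = 0.0833). In none of these 3 genes did the groups overlap, and 26.2% of all genes were apart and lower. Tyro3, another receptor of the family, is not a member and is outside the naming rule, as is Pros1, another ligand. Tyro3 differed by -0.001 and Pros1 by 0.32, both with overlapping groups.

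General phagocyte genes had differences from -0.65 to -0.01, with proteases among the smallest. Mpeg1, a pore-forming protein of phagocytes, was at 11.20 and 10.76 in wild type and at 10.38 and 10.27 in leukaemic mice (difference -0.65, SE 0.18, limma adjusted p = 0.106). Cd68, a lysosomal membrane glycoprotein, read 11.21 and 10.90 in the wild type mice, against 10.56 and 10.35 in leukaemic spleen (difference -0.60, SE 0.17, limma adjusted p = 0.109). Csf1r, the receptor for the growth factor that sustains macrophages, was at 11.91 and 11.66 in wild type and at 11.19 and 11.34 in leukaemic mice (difference -0.52, SE 0.15, limma adjusted p = 0.127). In all 3 the leukaemic values lay under the wild type ones.

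Lyz2, the lysozyme of macrophages and neutrophils, had a difference of -0.46 (SE 0.16) without overlap. Fcgr1, the high-affinity IgG receptor, had one of -0.51 (SE 0.24), with wild type replicate 2 at 8.16 and leukaemic replicate 2 at 8.11. The Fcgr1 difference was -0.16 without wild type replicate 1 and -0.87 without replicate 2. Among lysosomal proteases, Ctsd differed by -0.36 (SE 0.15) without overlap, Ctsl by -0.31 (SE 0.26), Ctsb by -0.19 (SE 0.15) and Lgmn by -0.01 (SE 0.14), the last 3 with overlapping groups. The 95% interval for Lgmn, an asparagine-specific protease, ran from -0.35 to 0.33. Apoe, a lipid carrier secreted by macrophages, had a difference of -0.27 (SE 0.15), and Cd14, a co-receptor for bacterial lipopolysaccharide, one of -0.16 (SE 0.16). The median over these 11 members was -0.36. It was -0.16 without wild type replicate 1 and -0.55 without wild type replicate 2. Without wild type replicate 1, Ctsl was at -0.03, Ctsb at -0.11, Apoe at -0.15 and Cd14 at -0.015.

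The leukaemic mice were not ordered the same way in all members. Compared with the wild type mean, Marco was at -1.29 in leukaemic replicate 1 and at -0.58 in replicate 2. Siglec1 was at -1.19 and -0.72, Hmox1 at -1.01 and -0.60, and Trf at -1.01 and -0.45. These 4 genes were further below wild type in replicate 1. The leukaemic mice also differed in age, sex and spleen weight, and the part of these was not tested. Other members were further below wild type in replicate 2, as Ctsl was with -0.01 in replicate 1 and -0.61 in replicate 2. Hpgd was at -0.22 and -0.59 and Cd5l at 0.34 and -0.22, and Cd163 had the reverse order of Cd5l with -0.27 and 0.27. Altogether 12 members were lower in replicate 1 and 20 in replicate 2, a share of 37.5% lower in replicate 1 against 44.3% of all genes, and the median over all members was -0.47 and -0.49. With 1 mouse on each side, these gaps have no test.

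**Figure D3:**
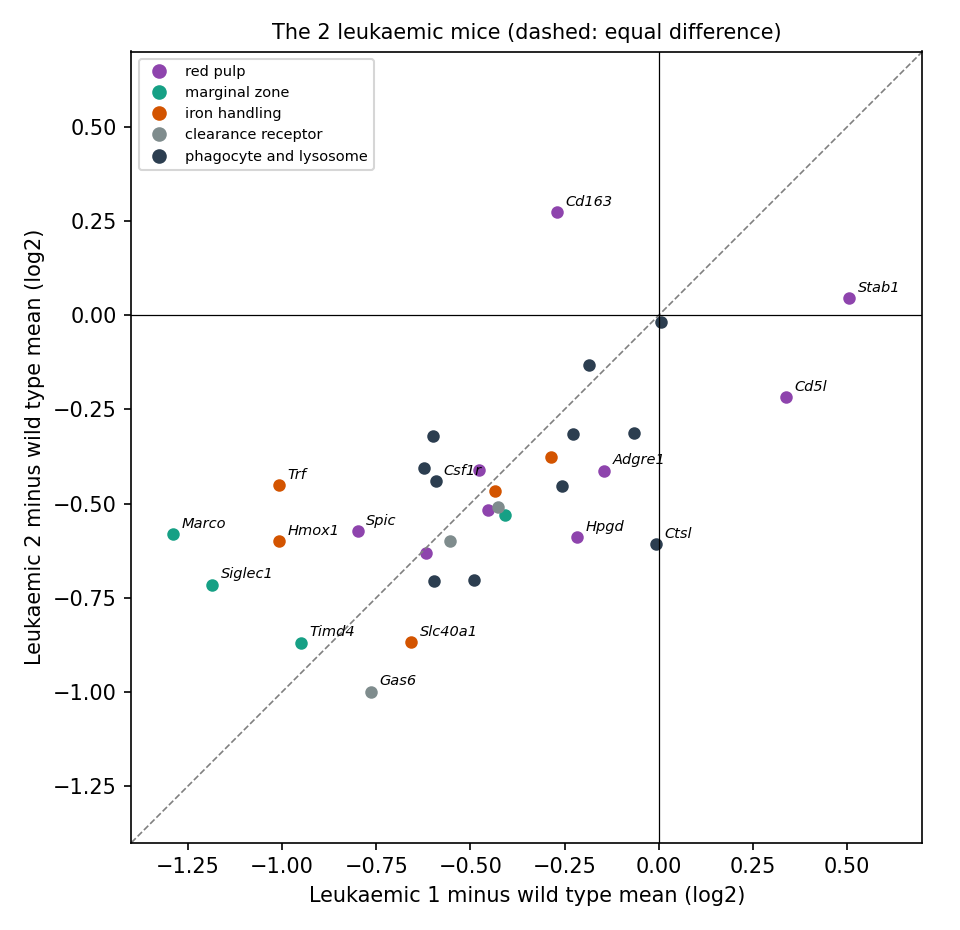
Each measured member's distance from the wild type mean (log2) in leukaemic replicate 1 (horizontal) and replicate 2 (vertical), coloured by group of members; points above the dashed line are lower in replicate 1. Marco, Siglec1, Hmox1 and Trf lie well above the line, and Ctsl, Cd5l, Stab1 and Hpgd below it.

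The wild type pair differed as well. Wild type replicate 2 was below replicate 1 in 26 of 32 members (81.2%), against 44.4% of all genes, with a median of replicate 2 minus replicate 1 of -0.24. Fcgr1, Gas6 and Ctsl had the widest such gaps, of -0.70, -0.60 and -0.56. That library also carried exocrine pancreas transcripts: the 7 measured acinar markers had a mean of 11.89 there and of 6.87 to 6.95 in the other 3 arrays. Without it the median difference of the members was -0.59, and without wild type replicate 1 it was -0.44. The part of pancreas RNA in the members' values was not tested.

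Related genes outside the list were described with the same fit. Of 28 genes of iron homeostasis 0 were called, 14 were apart on the lower side and 6 on the higher side, with a median difference of -0.15. Over all genes these shares are 2.46% called, 26.2% apart and lower and 23% apart and higher. Hebp1, a haem-binding protein, was at 10.08 and 10.10 in wild type and at 9.62 and 9.51 in leukaemic mice (difference -0.53, SE 0.14, limma adjusted p = 0.0908). Ftl1, the light chain of the iron store ferritin, was at 10.16 and 9.44 in wild type and at 8.85 and 8.93 in leukaemic mice (difference -0.91, SE 0.24, limma adjusted p = 0.0916). Ftl1 has near-identical gene copies, so its probe set may not be specific. The difference was below 0 in 18 of these 28 genes. Among those apart and higher, and outside the naming rule, were Hmox2, another haem oxygenase, and Flvcr1, a haem exporter. Hmox2 differed by 0.39 (SE 0.17) and Flvcr1 by 0.35 (SE 0.14).

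Among 12 measured regulators of macrophages 1 was called, Runx3, a transcription factor also active in T and NK cells, which fell by 1.30 (SE 0.19, limma adjusted p = 0.0292). It was at 9.84 and 9.71 in wild type and at 8.24 and 8.71 in leukaemic spleen. Runx3 was no longer called without wild type replicate 1 (limma adjusted p = 0.15) or 2 (0.161). Of the other 11, 0 were called, and 9 of the 12 were apart on the lower side, with a median difference of -0.56. Over all genes 2.46% were called and 26.2% were apart and lower. Among 9 target genes of LXR, the receptor family of Nr1h3, 0 were called and 6 were apart and lower, with a median of -0.54. Abca1, a cholesterol exporter, was at 9.93 and 9.97 in wild type and at 9.22 and 9.27 in leukaemic mice (difference -0.70, SE 0.13, limma adjusted p = 0.0513). Scd1, a fatty acid desaturase, differed by -0.68 (SE 0.16, limma adjusted p = 0.0726). Srebf1, another target and outside the naming rule, differed by 0.02.

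Of 16 further engulfment genes 0 were called (2.46% of all genes) and 9 were apart and lower (26.2% of all genes), with a median of -0.33. Mfge8, a bridging protein between dying cells and integrins, was at 11.92 and 11.56 in wild type and at 10.56 and 11.01 in leukaemic mice (difference -0.95, SE 0.21, limma adjusted p = 0.0629), and Itgb3, an integrin chain also found on platelets, differed by -0.78 (SE 0.18, limma adjusted p = 0.0732). Of 16 measured lysosome genes 1 was called, Hexa, a hexosaminidase subunit, which fell by 0.75 (SE 0.14, limma adjusted p = 0.0457). Its values were 10.73 and 10.63 in the wild type mice, against 9.91 and 9.95 in leukaemic mice, and the median of that list was -0.25. The Hexa call was lost without any 1 of the 4 mice (limma adjusted p from 0.136 to 0.26), with median centring (0.0529) and with all probe sets in the fit (0.0527).

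Markers of other spleen cells moved with the group as well. Over all genes, 26.2% were apart and lower, 1.03% were called lower and 1.43% called higher. At an unadjusted limma p under 0.05, 10.6% of all genes were lower and 10% higher. Neutrophil markers were apart and lower in 10 of 10 genes, 3 of them called, with array means of 11.02 and 10.98 in the wild type mice, against 9.42 and 10.28 in leukaemic mice. Dendritic cell markers were apart and lower in 8 of 8, 6 of them called, with a median difference of -1.42, and T cell markers in 4 of 4 measured, 3 of them called, with -1.68. Monocyte markers had a median of -0.53 over 8 measured genes, with array means of 9.13 and 8.96 in the wild type mice, against 8.33 and 8.92 in leukaemic spleen. Of these monocyte genes 0 were called, with 5 lower and 1 higher at an unadjusted limma p under 0.05. Mature B cell markers had a median of -0.84 over 5 measured genes, 2 of them called lower. Precursor B cell markers had differences above 0 in 7 of 7 genes, 5 of them called, with array means of 7.14 and 6.98 in the wild type mice, against 10.03 and 10.40 in leukaemic mice. Stroma and endothelium had a median of -0.02 over 7 measured genes, of which Ccl19, a T zone chemokine gene, was called lower (-1.19, limma adjusted p = 0.0481). The list of 10 macrophage markers, 9 of which are members, had array means of 10.52 and 10.35 in the wild type mice, against 9.89 and 10.01 in leukaemic mice. The part of these other cells in the values of members that they share, such as Lyz2 with neutrophils or Treml4 with dendritic cells, was not tested.

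**Figure D4:**
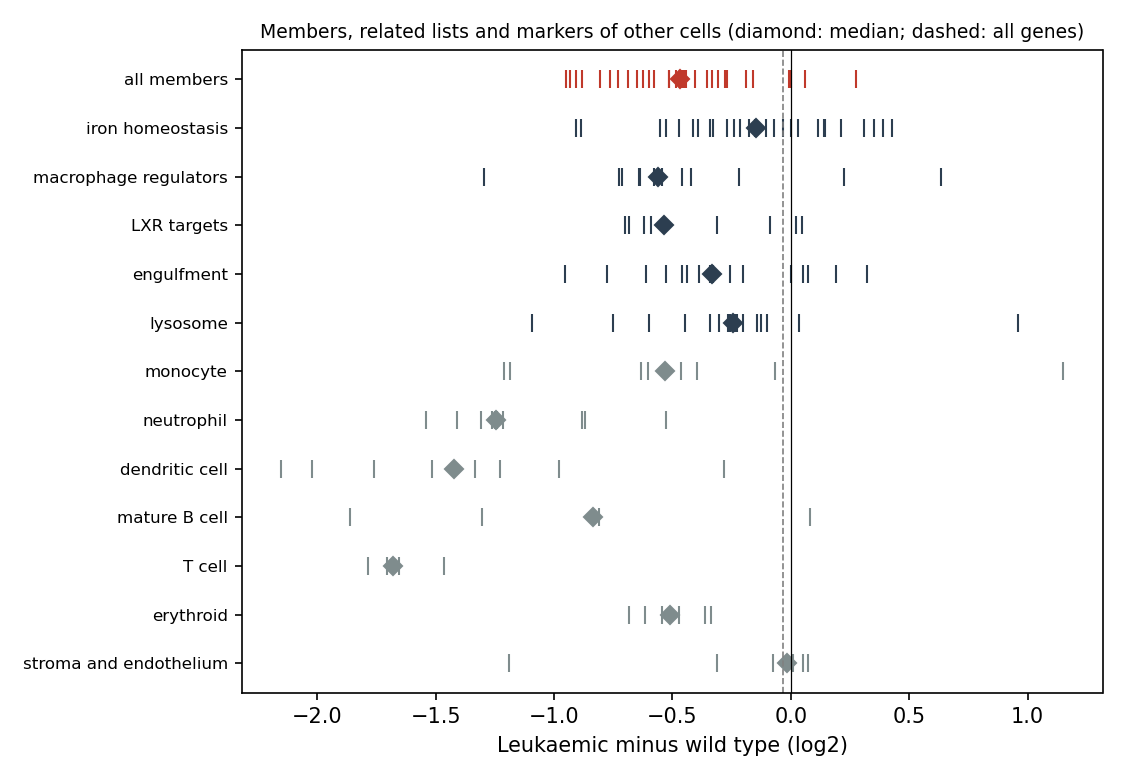
Difference between leukaemic and wild type spleen (log2) for every measured gene (ticks) of the member list (red), of related lists (dark) and of marker lists of other cells (grey), with diamonds at the medians and a dashed line at the median of all genes. The members' median of -0.47 lies between stroma and endothelium at -0.02 and T cell markers at -1.68.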

How the data were processed

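Total RNA of 4 spleens, 1 array per mouse, was measured on Affymetrix whole-transcript arrays. The authors deposited log2 values, 1 per probe set and array; per the submitters' processing notes, RMA, R 2.15.0 and limma 3.12.1 were used, with settings and genome build not given in the sources used here. RMA corrects background, equalises array distributions and summarises probes, so a shift shared by most genes would not be seen. Of 23309 probe sets, 20729 carried 1 gene symbol in the platform annotation; of several for 1 gene the one with the highest 4-array mean was used, and 0 members had several. Groups came from the sample titles.

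Differences were fitted with limma 3.58.1 in R 4.3.3 (lmFit, eBayes, no covariate, no filter) and adjusted over 19297 genes by Benjamini-Hochberg. SE and 95% intervals are those of the moderated fit, with 2 residual and 4.83 prior degrees of freedom. An exact permutation test of 2 against 2 mice cannot go below p = 0.333. On simulated data with this layout and all 19297 genes, 32%, 82%, 96% and 98% of genes shifted by 1, 2, 3 and 4 (log2) were recovered, with 4 false calls. The number of arrays limits the precision, and detection calls were not analysed here.

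The members, their grouping and the further lists were chosen with earlier results of these data known. Values in all arrays are given for the defining members and for the 3 of each group with the largest difference, and for further lists the called genes or the 2 of smallest p are named. Promoters were read with Python 3.11.15. Alternatives were median centring, quantile normalization, leaving out dim genes (12865 kept by their 4-array mean), the mean over a gene's probe sets, all probe sets in the fit, an intensity trend in the prior, the replicate number as a block, and each mouse left out.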

Additional observations from a re-analysis of the deposited data

How the results depend on the processing

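The median difference of the members stayed between -0.59 and -0.41 over 11 alternatives. With all mice kept, 0 members were called higher in any of them. The median was -0.47 with dim genes left out, the mean over probe sets, all probe sets, the trend and the block. These settings leave a member's difference unchanged by design, as 0 members had several probe sets. Median centring moved every member by the same amount. The count called lower was 0 with median centring, quantile normalization and all probe sets in the fit. It was 4 over the 12865 brighter genes (Timd4, Slc40a1, Siglec1, Hmox1), which adjusts over fewer genes, 3 with an intensity trend in the prior (Timd4, Slc40a1, Hmox1), and 1 with the mean over a gene's probe sets (Timd4). Leaving out 1 mouse gave 0 to 5: 0 without either wild type mouse, 1 (Gas6) without leukaemic replicate 1, and 5 (Marco, Timd4, Siglec1, Hmox1, Trf) without leukaemic replicate 2. With the replicate number as a block 10 were called lower. In the labels, replicates of the same number share only that number. Their deviations from the group means correlated at -0.086 over probe sets, which with 2 mice per group cannot show whether they share more. The cause of the shifts in these counts was not tested. Of the 29 members below 0, 28 were so under every alternative. Leaving out 1 mouse could not turn the sign in the 24 members whose groups were apart. This count was therefore largely fixed in advance. The sign turned in 3 members: Lgmn was at 0.0514 with median centring and at -0.0988 to 0.0865 with a mouse left out (above 0 without wild type replicate 1 or leukaemic replicate 2), Cd163 at -0.2708 to 0.2727 (below 0 without wild type replicate 1 or leukaemic replicate 2), and Cd5l at -0.0061 after quantile normalization and at -0.2169 to 0.3382 with a mouse left out (below 0 without wild type replicate 2 or leukaemic replicate 1). Calls over all genes moved with them, so these counts are not about the members alone: from 276 higher and 199 lower as deposited to 343 and 155 with median centring (68.9% against 58.1% higher), 168 and 93 after quantile normalization, 495 and 459 over the brighter genes, 351 and 269 with the trend, 324 and 253 with the mean over probe sets, 224 and 136 with all probe sets, and 785 and 908 with the block (46.4% higher). They were 12 and 26 without wild type replicate 1, 0 and 0 without wild type replicate 2 (3142 genes at an unadjusted limma p under 0.05), 282 and 209 without leukaemic replicate 1, and 450 and 593 with leukaemic replicate 2 left out.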

Other observations

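Some patterns in related genes were noticed after their values were seen and were not tested further. Atp6v0d2, a subunit of the vacuolar proton pump in macrophages and osteoclasts, was at 7.61 in leukaemic replicate 1 against 5.69 to 5.99 in the other 3 mice (difference 0.96, SE 0.47, limma adjusted p = 0.313). Vcan, a matrix proteoglycan of monocytes, was at 7.98 and 6.76 in leukaemic replicates 2 and 1 and at 6.13 and 6.32 in wild type, while the chemokine receptor gene Ccr2, another monocyte gene, was at 8.74 and 7.65 in those leukaemic mice and at 9.63 and 9.17 in wild type. The heavy and light ferritin chains also differed in size of difference, with Fth1 at -0.22 (SE 0.13) and Ftl1 at -0.91 (SE 0.24). Fth1 ranked at percentile 99.9 of mean expression, near the top of the array range. Ftl1 was at 10.16 and 9.44 in the wild type mice, and its probe set may not be specific.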
